A study of Mus musculus with 2148 samples.

Results

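The major histocompatibility complex (MHC) class I heavy chain genes of the mouse were followed through single thymic epithelial cells. The set held every gene of the deposited count table named H2-K1 or H2-D1 or with a symbol starting with H2-Q, H2-T or H2-M, other than the class II chaperone genes H2-DM. This gave 30 of 48437 genes: 2 classical genes, 8 H2-Q genes, 6 H2-T genes and 14 H2-M genes. Expression was not used to choose them. All 30 lie on chromosome 17 (GRCm38), from H2-K1 at 33996017 to 34000347 on the minus strand to H2-M2 at 37480851 to 37483552 on the same strand. Of these, H2-Q3, H2-T-ps, H2-M10.5-ps1 and H2-M6-ps are annotated as pseudogenes, and H2-Q5 and H2-T10 as polymorphic pseudogenes.

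A class I molecule is a heavy chain bound to the light chain beta-2 microglobulin, which is encoded by B2m, and to a peptide loaded in the endoplasmic reticulum. The classical heavy chains H2-K and H2-D present peptides from inside the cell to CD8 T cells, and in the thymus these complexes are what developing CD8 thymocytes are selected on. The nonclassical Q, T and M genes have narrower roles: H2-T23 encodes Qa-1, H2-Q7 encodes Qa-2, H2-M3 presents formylated peptides, H2-T3 encodes the thymus leukaemia antigen and H2-Q10 is secreted by the liver. The H2-M10 genes, with H2-M1 and H2-M9, are known from the vomeronasal organ, where they are read in sensory neurons together with V2R pheromone receptors (Vmn2r genes). Medullary thymic epithelial cells (mTEC) read many genes of other organs, in part through the regulator Aire, and so display them to thymocytes.

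The cells came from C57BL/6 mice and were sorted without CD45, the marker of blood cells, as EpCAM+ epithelium. Cortical cells (cTEC) were Ly51+, and medullary cells were Ly51- with high (mTEChi) or low (mTEClo) MHC class II on the surface, so that class II genes themselves were part of the gate. Each library was 1 cell, read by RamDA-seq, a full-length total RNA method, and values are given as CPM, the reads of a gene per 1e6 reads counted on all genes. Because the labels give the mice no numbers, the cells that share a group, an age and a sex were added up as 1 mouse pool, which may hold several mice. Numbers of cells from 100 up are rounded to 2 digits here. Adult wild-type (WT) mTEChi had about 620 cells in 4 pools (males of 4, 5 and 6 weeks with 440, 12 and 82 cells, and females of 4 weeks with 82 cells, called pools 1 to 4). Adult WT mTEClo had about 360 cells in 3 pools of males (8, 5 and 4 weeks, with 220, 74 and 66 cells). Mice with a germline deletion of Aire (Aire-KO) gave 1 pool of each sort, males of 5 weeks, with about 340 mTEChi and 150 mTEClo cells. Adult WT cTEC were 1 pool of 77 cells from males of 6 weeks. The newborn WT mice were 1 day old and of unknown sex, and gave about 140 cTEC, 120 mTEClo and 170 mTEChi cells sorted onto the same 5 plates. Where nothing says that samples came from separate animals, p-values measure only the spread between these sums, which may be technical.

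About 2000 cells held 1424841034 reads, from 203010 to 1823784 per cell, with medians per group from 532926 to 862537. Aire was read at 1109.7, 1844.6, 1125.1 and 1789.7 CPM in the 4 WT mTEChi pools, at 26.1 CPM in Aire-KO mTEChi and at 0.153 CPM in Aire-KO mTEClo. The cTEC marker Psmb11 gave 732.4 CPM in the adult cTEC pool, 915.6 CPM in the newborn one and also 283.7 CPM in newborn mTEClo, so the newborn mTEClo gate did not exclude cells with this transcript. Tuft cell markers summed to 2933 and 3398 CPM in adult WT mTEClo pools 2 and 3 against 234.3 CPM in pool 1. Summed markers of thymocytes ran from 25.5 to 353.03 CPM over the pools, highest in adult cTEC, and those of dendritic and B cells from 0.639 to 64.5 CPM. Stromal markers ran from 6.3 to 358.8 CPM. Many of these markers can also be read ectopically by mTEChi.

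Promoters are shown first, for H2-K1, H2-D1, H2-Q10, H2-M10.1 and H2-M10.5. The sequences are 200-base windows from the RefSeq promoter table (GRCm38.p6), 5' to 3' on the strand of the gene, with 3 short motifs of class I promoters in capitals. These are the enhancer A core GGGATTCC, the X2 core TGACG and the Y box ATTGG. Each was searched on both strands, and a match on the opposite strand is shown as its reverse complement.
H2-K1, chr17:34000348-34000547, minus strand: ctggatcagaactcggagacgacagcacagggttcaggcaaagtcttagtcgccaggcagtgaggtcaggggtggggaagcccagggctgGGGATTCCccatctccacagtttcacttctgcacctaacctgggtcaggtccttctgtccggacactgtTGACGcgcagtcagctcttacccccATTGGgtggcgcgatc
H2-D1, chr17:35262894-35263093, plus strand: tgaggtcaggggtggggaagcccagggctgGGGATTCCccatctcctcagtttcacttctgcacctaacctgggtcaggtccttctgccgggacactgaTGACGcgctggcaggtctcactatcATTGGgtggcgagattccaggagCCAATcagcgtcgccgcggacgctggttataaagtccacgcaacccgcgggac
H2-Q10, chr17:35469889-35470088, plus strand: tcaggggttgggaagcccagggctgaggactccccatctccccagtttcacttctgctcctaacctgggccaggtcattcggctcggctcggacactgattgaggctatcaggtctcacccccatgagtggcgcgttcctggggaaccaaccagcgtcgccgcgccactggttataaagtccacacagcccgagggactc
H2-M10.1, chr17:36326151-36326350, minus strand: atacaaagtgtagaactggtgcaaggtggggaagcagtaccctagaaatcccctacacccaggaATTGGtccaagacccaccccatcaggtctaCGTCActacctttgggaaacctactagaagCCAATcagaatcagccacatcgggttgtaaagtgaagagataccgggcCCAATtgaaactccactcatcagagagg
H2-M10.5, chr17:36772710-36772909, plus strand: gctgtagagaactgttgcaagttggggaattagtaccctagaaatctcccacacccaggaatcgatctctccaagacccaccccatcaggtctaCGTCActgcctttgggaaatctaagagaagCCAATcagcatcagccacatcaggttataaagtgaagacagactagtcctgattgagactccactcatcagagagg
The table held 25 promoters of 23 members, each of 250 bases before and 50 bases after the start. The enhancer A core, to which NF-kB factors are known to bind, was in 5 of the 25 (both starts of H2-K1, and H2-D1, H2-Q6 and H2-Q7), against 1.06% of all 32851 promoters. It was absent from the H2-M10 promoters and also from those of highly read genes such as H2-M2, H2-M3, H2-Q4 and H2-T23. The X2 core was in 12 of 25 against 20.8% of all promoters, and the Y box in 22 of 25 against 37.4%. An interferon response core, GAAANNGAA, was in 2 of 25 (H2-T22 and H2-T23) against 8.56%. The windows shown of H2-K1, H2-D1 and H2-Q10 hold the run tttcacttc, which this pattern does not match on either strand. Other forms of an interferon element were not searched, so this count does not cover them. None of the enhancer A, X2 and Y box letters was in the H2-Q10 window shown. The 6 H2-M10 promoters shared a run of 12 bases (ccatcaggtcta), which precedes the X2 core in the windows of H2-M10.1 and H2-M10.5. A match of these letters is a description of the sequence only.

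**Figure D1:**
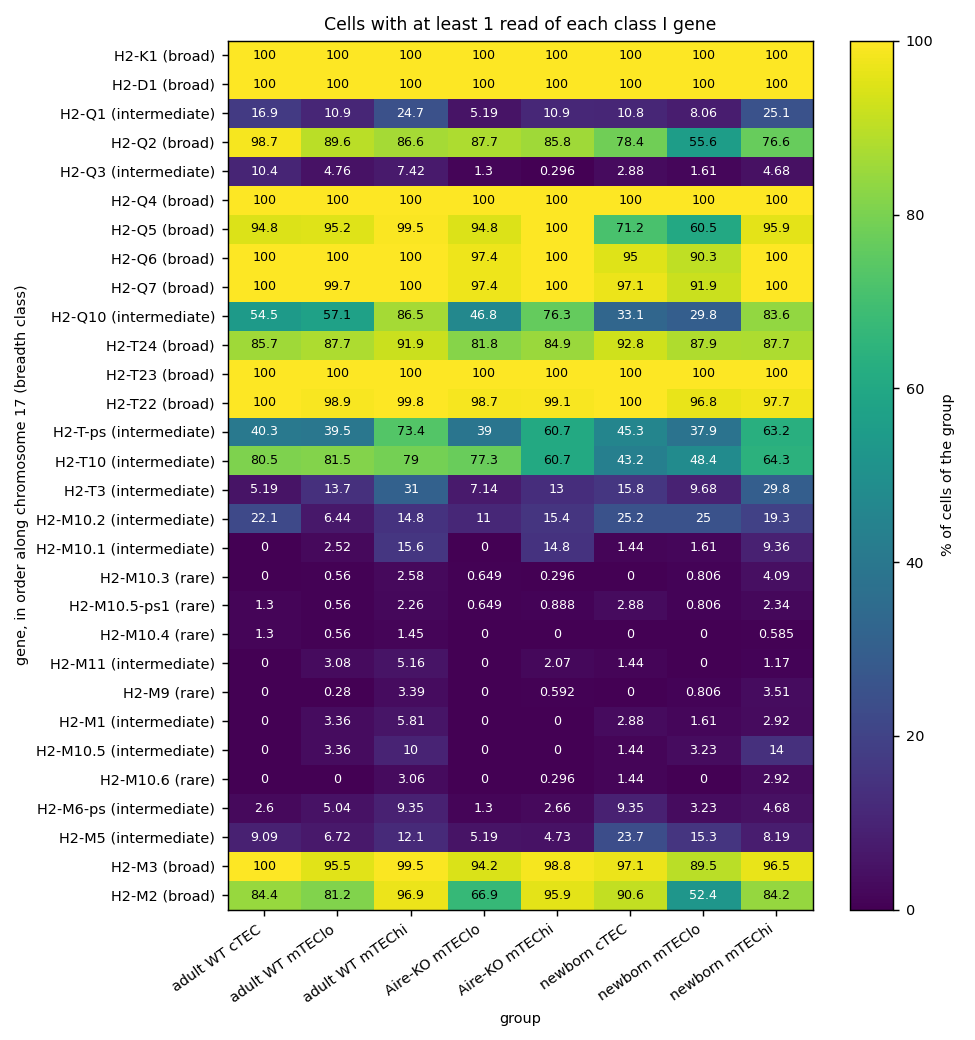
Share of cells with at least 1 read of each of the 30 genes (rows) in each of the 8 groups (columns), in percent of the cells of the group. The 12 broad genes are filled across all groups, whereas most H2-M genes are nearly empty outside mTEChi, where H2-M10.1 reaches 15.6% of adult WT cells and 14.8% of Aire-KO cells.

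The members fell into 3 classes by how many cells had at least 1 read. Broad members, read in at least 50% of the cells of each of the 8 groups, were 12: H2-K1, H2-D1, H2-Q2, H2-Q4, H2-Q5, H2-Q6, H2-Q7, H2-T22, H2-T23, H2-T24, H2-M2 and H2-M3. H2-K1, H2-D1, H2-Q4 and H2-T23 were read in 100% of the cells of every group. The lowest shares among broad members were those of H2-M2 (52.4%), H2-Q2 (55.6%) and H2-Q5 (60.5%), all in newborn mTEClo. Rare members, read in under 5% of the cells of each group, were 5: H2-M9, H2-M10.3, H2-M10.4, H2-M10.6 and H2-M10.5-ps1. The other 13 were intermediate, and among them H2-Q10 was read in 86.5% of WT mTEChi cells and 29.8% of newborn mTEClo cells. The H2-M10 family was therefore split, with H2-M10.1, H2-M10.2 and H2-M10.5 in the intermediate class. With cells thinned to 200000 reads, 9 genes were broad and 8 were rare.

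Per length of exon, H2-K1 had the highest level in adult WT mTEChi, at 486.5 RPKM, reads per kilobase of exon and 1e6 reads. H2-D1 followed at 390.9 and H2-Q6 at 195.6 RPKM, and then came H2-M2 at 120.9, H2-T23 at 95.9, H2-Q7 at 93.1, H2-M3 at 74 and H2-Q4 at 66.7 RPKM. The other broad members lay between 8.86 RPKM (H2-T24) and 44.2 RPKM (H2-Q5). H2-Q10 had 13.3 RPKM, H2-M10.1 had 6.16 and H2-M10.5 had 5.77 RPKM. Near-identical copies limit this order, because reads that mapped poorly had been removed before counting. Of the 50-base windows of its transcripts, 46.5% of H2-T22 and 49.6% of H2-T10 were found in no other gene, and each shared about 31% with the other (31.2% and 31.7%). The unique share was 63.6% for H2-Q4 and H2-Q5, 65% for H2-Q6 and 73.5% for H2-Q7, against 90.4% for H2-K1 and 96.3% for H2-M10.1. It was 83.8% for H2-M10.5, which shared 11.5% with H2-M10.3. When only unique windows were counted as length, an alternative chosen after seeing the data, H2-Q7 ranked 4th and H2-M2 the 5th. Counting ignored strand, and antisense genes covered 19.1% of the exon bases of H2-Q4 (Gm11131), 27.1% of H2-T10 (BC023719) and 29.4% of H2-T22 (A930015D03Rik). Reads of these pairs cannot be told apart.

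The first comparison asked how the members differed between the adult medullary sorts. Of the 30 members, 5 were called higher in mTEChi, none of them broad: H2-M10.1, H2-M10.5, H2-M9, H2-Q1 and H2-Q10. H2-K1 was at 1391.04, 1588.7, 1400 and 1723.4 CPM in the mTEChi pools (1525.8 ± 160, mean ± SD, n = 4) and at 1366.8, 1201.4 and 1198.6 CPM in the mTEClo pools (1255.6 ± 96.3, n = 3). H2-D1 was at 985.5, 1091.3, 988.8 and 1186.4 CPM in mTEChi and at 877.2, 895.1 and 899.4 CPM in mTEClo. Each mTEChi pool was above each mTEClo pool for both genes, yet after scaling between libraries the fitted differences were within error, at 0.08 ± 0.17 (log2 ± SE) for H2-K1 and 0.06 ± 0.14 for H2-D1. None of the 12 broad members was called by the quasi-likelihood test of edgeR at a Benjamini-Hochberg adjusted p under 0.05. Their log2 differences had a median of 0.06 and ran from -0.79 for H2-T24 (adjusted p = 0.0782) to 0.93 for H2-M2 (adjusted p = 0.0773), with 8 positive and 4 negative. H2-M2 was at 160.9 to 249.3 CPM in the mTEChi pools and at 63.1 to 127.3 CPM in the mTEClo pools, which did not overlap, and age and sex as a replicate block called it. H2-M3 was at 97.97 to 110 CPM against 48.3 to 75.7 CPM, also without overlap, and DESeq2 called H2-T24 lower. The median over all genes tested was 0.298, so that a typical gene was somewhat higher in mTEChi, and the median over all 30 members was 1.73.

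H2-M10.1 was at 9.28, 1.38, 5.57 and 9.13 CPM in the 4 mTEChi pools and at 0.0622, 0.05 and 0 CPM in the 3 mTEClo pools, without overlap. It was higher in mTEChi by 7.03 ± 1.18 on the log2 scale (edgeR adjusted p = 0.0108). H2-M10.5 was at 9.25, 18.6, 0.0718 and 8.39 CPM in mTEChi and at 0.116, 0.0167 and 0 CPM in mTEClo, and mTEChi pool 3 lay between the mTEClo pools. Its fitted difference was 7.18 ± 1.88 (edgeR adjusted p = 0.0424). H2-Q10, the liver gene, was at 55.02, 12.5, 48.1 and 101.2 CPM in mTEChi and at 1.80, 9.55 and 6.50 CPM in mTEClo, with no overlap and a difference of 3.06 ± 0.77 (edgeR adjusted p = 0.0384). H2-Q1 was at 10.9, 0.626, 2.34 and 6.64 CPM against 0.142, 0.484 and 0.170 CPM, higher in mTEChi by 4.12 ± 1.07 (edgeR adjusted p = 0.0414). H2-M9 was called at 0.509 CPM over all mTEChi cells against 1 read in all mTEClo cells (edgeR adjusted p = 0.0443). The 2 levels had a ratio of 111.6 (95% counting interval 19.8 to 4427). Intervals of this kind, here and below, take each read as an independent draw. Reads of such genes were often held by few cells, so the intervals are too narrow. They do not cover the spread between cells or pools. These 5 of 30 members stood against a background of 7.79% of all genes called higher in mTEChi, and 0 members against 5.18% called lower. Not called were H2-M10.3, at 0.703 CPM against 2 reads (ratio 77.2, interval 21.2 to 640), and H2-M10.6, which had no read in mTEClo and was at least 41.96-fold higher in mTEChi (floor of 3 reads over the group). That bound adds up all mTEChi pools, of which pools 2 and 3 had no read of H2-M10.6.

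How many members were called depended on single pools. Without mTEChi pool 1, pool 2, pool 3 or pool 4 the counts were 1, 8, 3 and 1, and without mTEClo pool 1, pool 2 or pool 3 they were 3, 1 and 1. Calls over all genes moved too: 2372, 5955, 2763 and 2301 genes in the fits without an mTEChi pool, against 5183 with all pools. Left out, mTEClo pool 1 gave 4454 genes, and pool 2 and pool 3 gave at most 2508 each. H2-M10.1 kept its call in all 13 alternatives tried, H2-M10.5 in 7, H2-Q1 in 6, and H2-M9 and H2-Q10 in 5 each. With cells that held tuft markers left out, 3 members were called (H2-M10.1, H2-M10.5 and H2-Q1). With age and sex as a replicate block there were also 3 (H2-M10.1, H2-M10.5 and H2-M2). Over all genes, these fits called 3220 and 3026.

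**Figure D2:**
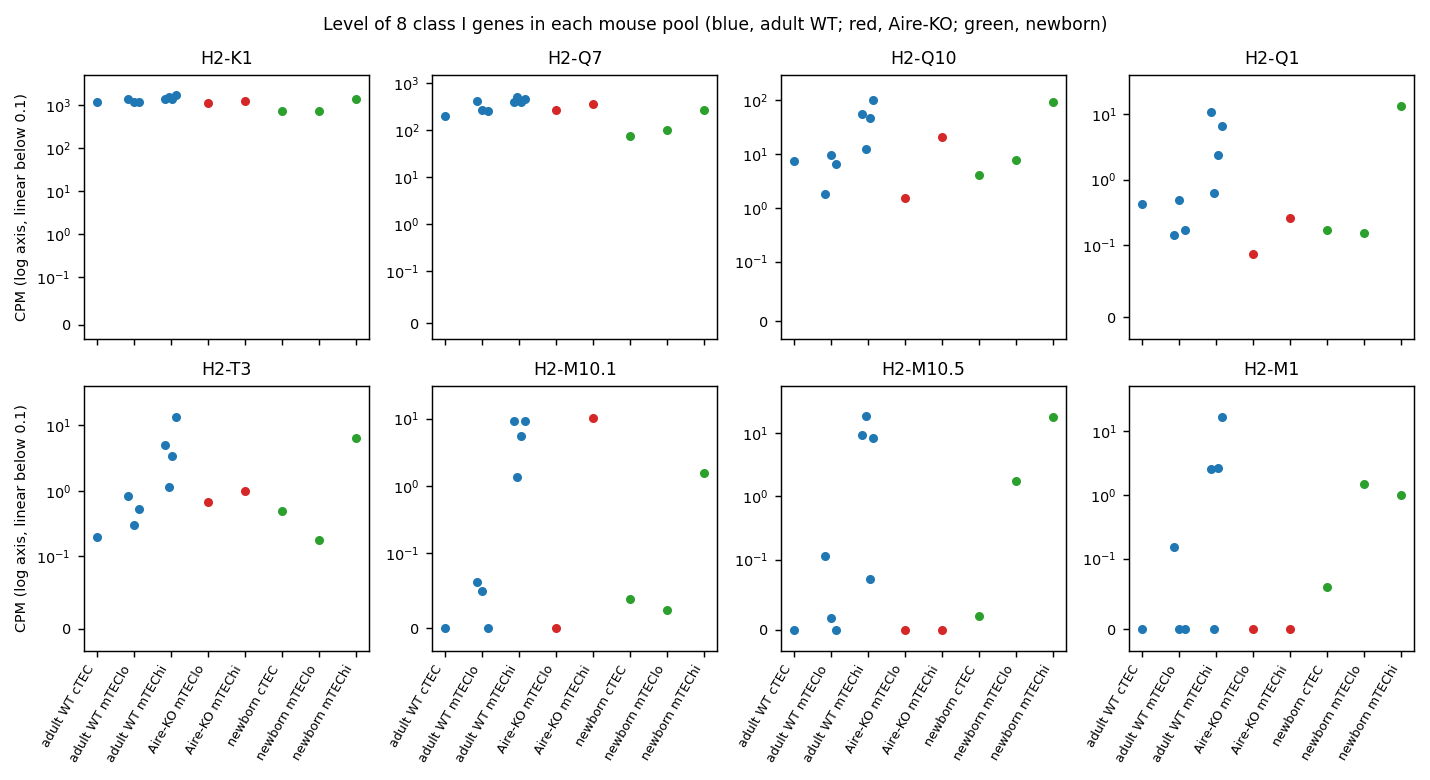
CPM (log axis that is linear below 0.1) of 8 members in each mouse pool, with adult WT in blue, Aire-KO in red and newborn in green. H2-K1 stays within one band in the adult pools, H2-M10.1 of Aire-KO mTEChi (10.11 CPM) lies at the top of the WT mTEChi pools, and H2-M10.5 and H2-M1 of Aire-KO lie at 0.

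Adult cTEC were 1 pool and were assumed to vary like the others. H2-K1 was at 1187.1 CPM, H2-D1 at 768.2 CPM and H2-Q4 at 222.2 CPM there, and no member passed the edgeR test against mTEClo (background 0.0423% higher and 0.0149% lower, 0 members at an unadjusted p under 0.05, 0 with DESeq2). Against mTEChi no member passed either (background 1.71% higher and 1.15% lower), although 6 had an unadjusted p under 0.05 (18.8% of all genes had one) and DESeq2 called 7 lower in cTEC (background 13.7%). The cTEC pool had no read of H2-M10.1, H2-M10.5 or H2-M1, whose levels over all WT mTEChi cells were at least 186.4-fold, 173.1-fold and 86.9-fold higher. These bounds add up all mTEChi pools and take each read as an independent draw, so they do not cover the spread between cells or pools. For H2-M10.1 this was 0 of 77 cells, which allows a share of up to 3.90%. The members' median of the fitted differences between cTEC and mTEChi was -0.93 against -0.49 over all genes.

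The second question was which members depended on Aire. In Aire-KO mTEChi H2-M10.5 and H2-M1 had no read in any cell, and H2-M10.1 was read in a share of cells close to that of WT. The classical genes H2-K1 and H2-D1 lay somewhat below all WT pools. With 1 Aire-KO pool no member passed the test. Tuft cell markers summed to 29.3 CPM in Aire-KO mTEChi, within the range of the WT pools (23 to 239.9 CPM). There 10.06% of cells were over 50 CPM of them, against 16.7 to 31.7% in the WT pools. Their fitted median was -3.12, with 0 of 5 called. Without the cells that held them edgeR still called 0 members, and the members' median was -0.91. H2-M10.5 was read in 62 of 620 WT mTEChi cells (exact 95% interval 7.75 to 12.6%) and in 0 Aire-KO cells, which allows a share of up to 0.888%. Its level over all WT cells was at least 779.5-fold that of Aire-KO, whose floor was 3 reads over the group. Bounds of this kind add up all WT pools and take each read as an independent draw, so they do not cover the spread between cells or pools. WT pool 3 was at 0.0718 CPM, against an Aire-KO floor of 0.0102 CPM. H2-M1 was read in 36 of 620 WT cells (5.81%) and in 0 Aire-KO cells, at least 391.1-fold higher in WT. H2-M10.5 was at 0 on all 4 Aire-KO plates and above 0 on all 9 WT plates, where it ran from 0.0450 to 34.7 CPM. H2-M1 was at 0 on 2 of the 9 WT plates, and at 0 in WT pool 2 with its 12 cells, the only WT mTEChi pool of the same age as the Aire-KO mice.

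H2-M10.1 differed from its neighbours in the family. It was at 10.11 CPM in Aire-KO mTEChi, above the 4 WT pools (1.38 to 9.28 CPM), with a fitted difference of 0.78 ± 1.16 that was not called. It was read in 50 Aire-KO cells (14.8%, interval 11.2 to 19%) and 97 of 620 WT cells (15.6%, interval 12.9 to 18.7). These intervals cover the sampling of cells only, not the spread between mice. The 4 Aire-KO plates gave 0.948 to 24.8 CPM and the 9 WT plates 0.867 to 16.7 CPM, so the ranges overlapped. H2-M10.2 was also read in a like share of cells, 15.4% in Aire-KO and 14.8% in WT mTEChi, and it was the family member read most evenly over the groups, from 6.4% of WT mTEClo cells to 25.2% of newborn cTEC. The remaining coding family members had at most 1 read in Aire-KO mTEChi, and their reads in WT came almost wholly from pools 1 and 4. H2-M10.3 was at 0.703 CPM in WT and had 1 read in Aire-KO mTEChi (ratio 206.1, counting interval 36.7 to 8163), and H2-M10.6 was at 0.574 CPM and had 1 read (ratio 168.04, interval 29.9 to 6661). H2-M10.4 had 37 reads in WT and none in Aire-KO, at least 7.56-fold higher in WT. In WT pools 2 and 3, H2-M10.3 had 1 read each and H2-M10.6 and H2-M10.4 had 0, so for the latter pair Aire-KO lay within the WT pools. H2-M9, next to the family on the chromosome, was at 0.509 CPM in WT and had 3 reads in Aire-KO, within the WT pools since pool 2 had 0 (ratio 49.7, interval 16.8 to 242.6).

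Several Q and T genes read by more cells had lower values in Aire-KO than in most WT pools. H2-Q1 was at 0.259 CPM in Aire-KO mTEChi, below the 4 WT pools (0.626 to 10.9 CPM), and in 10.9% of cells against 24.7%. H2-T3 was at 0.993 CPM against 1.13 to 13.3 CPM, and in 13.0% of cells against 30.97%. H2-Q10 was at 20.6 CPM, between WT pool 2 (12.5 CPM) and the other WT pools (48.1 to 101.2 CPM), and was read in 76.3% of cells against 86.5%. The fitted log2 differences were -4.19 ± 1.76, -2.42 ± 1.45 and -1.28 ± 1.10, none of them called. With age and sex as a replicate block the value of H2-Q10 was 0.0199, so its direction did not hold. H2-T10 and H2-T-ps, at 6.00 and 4.92 CPM, also lay below all WT pools, which held 11.9 to 15.4 and 8.76 to 14.7 CPM.

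The broad members of Aire-KO mTEChi had a median log2 difference of 0.02 from WT, with 6 positive and 6 negative and a range of -0.47 to 0.70. H2-K1 was at 1264.99 CPM, below the 4 WT pools, with a fitted difference of -0.15 ± 0.24. H2-D1 was also below them, at 924.02 CPM against 985.5 to 1186.4 CPM. H2-T22 was at 35.2 CPM against 50.3 to 58.7 CPM (-0.47 ± 0.48), and H2-M3 was at 124.1 CPM against 97.97 to 110 CPM. The Aire-KO pool lay below all WT pools for 5 of 12 broad, 6 of 13 intermediate and 1 of 5 rare members, and above them for 1, 1 and 0. Of all genes tested, 17.5% lay below and 16.5% above the 4 WT pools. The median over all 30 members was -1.06 against -0.16 over all genes.

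No member and no gene at all was called between Aire-KO and WT mTEChi by the edgeR test over pools (background 0% in each direction). With age and sex as a replicate block 56 genes were called, none of them members. At an unadjusted p under 0.05 there were 4 members, H2-M10.5, H2-M1, H2-M10.3 and H2-Q1, and 4.37% of all genes, and DESeq2 called 2 lower, H2-M10.5 and H2-M1 (background 2.14%). With plates as units, which share mice and make p too small, edgeR called 8 of 29 lower (background 4.73%). Aire itself differed by -5.69 ± 0.57 with an adjusted p of 0.239.

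In Aire-KO mTEClo no member was called either. H2-K1 was at 1131.4 CPM against 1198.6 to 1366.8 CPM in the WT pools, and H2-D1 at 711.998 CPM against 877.2 to 899.4 CPM. The median over members was -0.11 (-0.05 with genes at 0 set to their bound) against 0 over all genes. The edgeR test called 0 members (background 0% in each direction, 0 at an unadjusted p under 0.05, 0 with DESeq2). H2-M10.1 was in 0 Aire-KO mTEClo cells, which allows a share of up to 1.95%, and in 2.52% of WT mTEClo cells. The difference between the Aire effects in the 2 sorts, fitted as an interaction, was called for 0 members by edgeR (background 0%, 0 at an unadjusted p under 0.05, 0 with DESeq2).

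Reads of the H2-M10 genes were held by few cells. Without H2-M10.2, at least 1 coding H2-M10 gene was read in 25.5% of WT mTEChi cells, in 15.4% of Aire-KO mTEChi cells (52 cells) and in 25.7% of newborn mTEChi cells (44 cells). The share was 6.72% in adult WT mTEClo, and 1 of 77 adult cTEC cells had one. More than 1 of these 5 genes was read in 32 WT mTEChi cells, 0 Aire-KO mTEChi cells and 6 newborn mTEChi cells. Within WT mTEChi, the 5 cells with most reads held 81.2% of the reads of H2-M10.5, 87.2% of H2-M1, 93.2% of H2-M10.3 and 47.2% of H2-M10.1, against 9.90% for H2-Q10. One cell held the most reads of both H2-M10.1 (16.9% of its WT mTEChi reads) and H2-M10.5 (23.1%), with Aire at 54.7 CPM. Another held the most of H2-M1 (34.8%), H2-M10.6 (28.8%) and H2-M9 (31.3%), with Aire at 284.3 CPM. H2-M10.5 was read in 19 of the 97 cells with H2-M10.1, and H2-M1 in 13 of the 62 cells with H2-M10.5. A pool's CPM does not tell a smaller number of reading cells from less RNA per cell, which is why shares of cells are given beside it. After thinning to 200000 reads, H2-M10.1 was in 10.16% of WT and 11.5% of Aire-KO mTEChi cells and H2-M10.5 in 4.52% of WT cells.

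The newborn sorts shared 5 plates, numbered 16 to 20, and were compared with the plate as a block, so that p measures the spread between plates. H2-K1, H2-D1 and most broad members were higher in newborn mTEChi than in both other newborn sorts, and the cTEC and mTEClo levels were about equal for the classical genes. H2-K1 was at 707.5, 706.5, 753.8, 784.2 and 792.5 CPM in cTEC, at 668.7, 558.9, 697.7, 746.3 and 916.8 CPM in mTEClo and at 1261.8, 1263.4, 1433.3, 1514.4 and 1495.9 CPM in mTEChi. Every mTEChi plate was above every plate of the other sorts, and the cTEC plates lay within the range of mTEClo. H2-K1 was higher in mTEChi than in mTEClo by 1.03 ± 0.07 on the log2 scale (edgeR adjusted p = 4.475e-06).

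H2-D1 ran from 861.2 to 1103.6 CPM in mTEChi and from 297.8 to 590.9 CPM in mTEClo, a difference of 1.23 ± 0.09. The Qa-2 gene H2-Q7 ran from 243.9 to 304.4 CPM in mTEChi, from 44.2 to 135.1 CPM in mTEClo and from 61.7 to 83.8 CPM in cTEC, and its neighbour H2-Q6 from 234.7 to 287.4, from 43.3 to 145.6 and from 78 to 95.2 CPM. Both were higher in mTEChi than in mTEClo, by 1.52 ± 0.18 and 1.51 ± 0.19. H2-M2 showed the largest difference among broad members, with 64.3 to 87.7 CPM in mTEChi, 24.4 to 55.3 CPM in cTEC and 7.59 to 16.3 CPM in mTEClo, so that all 3 sorts were apart. It was 2.99 ± 0.21 higher in mTEChi than in mTEClo and 2.00 ± 0.21 higher in cTEC than in mTEClo (edgeR adjusted p = 0.000744 for the latter). H2-M3 was 1.47 ± 0.16 higher, H2-Q5 1.40 ± 0.16, H2-Q2 1.72 ± 0.36 and H2-T23 0.47 ± 0.09 higher in mTEChi than in mTEClo. The broad members not called were H2-Q4 at 0.21 ± 0.10 (edgeR adjusted p = 0.0971), H2-T22 at 0.18 ± 0.15 and H2-T24 at 0.16 ± 0.22.

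**Figure D3:**
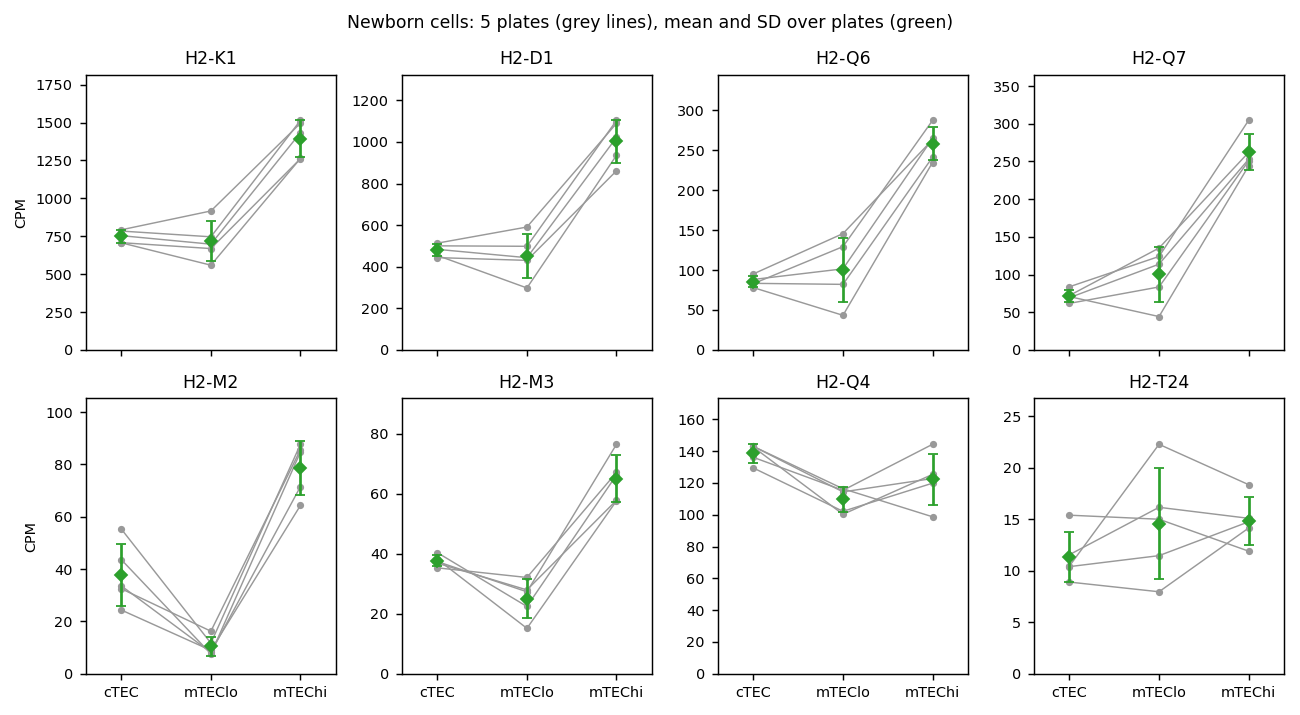
CPM of 8 broad members in the newborn cTEC, mTEClo and mTEChi of each of 5 plates, with grey lines joining the sorts of 1 plate and green marks for the mean and SD. H2-K1, H2-D1, H2-Q6, H2-Q7, H2-M2 and H2-M3 lie highest in mTEChi on every plate, while the ranges of H2-Q4 (98.7 to 144.3 CPM in mTEChi, 129.4 to 143.01 CPM in cTEC) and H2-T24 overlap.

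Of the members that were not broad, 5 were called higher in newborn mTEChi than in mTEClo, and others such as H2-M10.2 and H2-M1 had higher values in mTEClo. H2-Q10 was at 69.9 to 142.3 CPM in newborn mTEChi, 0.291 to 17.9 CPM in mTEClo and 0.375 to 11.6 CPM in cTEC, and was 4.26 ± 0.94 higher in mTEChi than in mTEClo. H2-Q1 (1.17 to 32.3 CPM in mTEChi against 0.0970 to 0.202 CPM in mTEClo) was higher by 5.57 ± 0.78, H2-T3 (0.723 to 14.8 against 0.0485 to 0.363 CPM) by 5.12 ± 0.97 and H2-T-ps by 2.47 ± 0.41. H2-M10.1 was at 1.57 CPM in mTEChi, had 2 reads in mTEClo and was called, at a ratio of 62.8 (counting interval 17.1 to 523.7). H2-M10.5 was at 0.0360, 21.4, 43, 0.167 and 42.1 CPM on the mTEChi plates. It was not called against mTEClo, at 5.60 ± 3.31 (edgeR adjusted p = 0.186), where a single cell held 97.9% of the mTEClo reads. That cell, on plate 19, also held 99.1% of the reads of H2-M1 and all reads of H2-M9 (50) and H2-M10.3 (23) of newborn mTEClo, and had Aire at 1692.05 CPM.

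In all, 14 of 23 members tested were higher in newborn mTEChi than in mTEClo (background 26.3%) and 0 were lower (background 21.8%), made up of 9 of 12 broad, 5 of 10 intermediate and 0 of 1 rare members. Their median was 1.51 against 0.10 over all genes. Against mTEChi, newborn cTEC were lower for 15 of 23 (background 29.5%) and higher for H2-Q4 only, by 0.29 ± 0.10 (background 24.8%), with a median of -1.25 against -0.11. The 15 included H2-K1 (-0.79 ± 0.07), H2-D1 (-0.96 ± 0.09), H2-Q7 (-1.78 ± 0.18), H2-Q1 (-5.32 ± 0.77), H2-Q10 (-5.10 ± 0.96) and H2-M10.5, which was at 18.4 CPM in mTEChi and had 2 reads in cTEC (ratio 932.7, counting interval 257.8 to 7708). The call of H2-Q4 was kept in 1 of 9 alternatives, and those of H2-K1, H2-D1, H2-Q7, H2-Q1 and H2-Q10 in all 9, while that of H2-M10.5 was kept in 5 of 8 and that of H2-T10 in 4 of 9. Newborn cTEC were higher than mTEClo for 4 of 23 (background 5.41%) and lower for 0 (background 1.98%), with a median of 0.24 against -0.005 over all genes. These 4 were H2-M2, H2-Q4 (0.50 ± 0.10), H2-M3 (0.79 ± 0.16) and H2-T23 (0.32 ± 0.09). Without plate 16, 17, 18, 19 or 20 the count of higher members was 1, 3, 3, 2 and 1, with H2-Q7 called lower without plate 17, and H2-M2 was the call kept in all 9 alternatives. Over all genes tested, each of these fits without a plate also called fewer genes than the fit with all plates. Dendritic and B cell markers summed to 14.5 to 64 CPM on the mTEChi plates, 0.968 to 8.0 CPM on the mTEClo plates and 0.738 to 1.74 CPM on the cTEC plates, and 4 of 5 were higher in mTEChi than in mTEClo. Of the thymocyte markers 4 of 6 and of the stromal markers 2 of 4 were also higher in mTEChi than in mTEClo, and their part in these results was not tested.

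**Figure D4:**
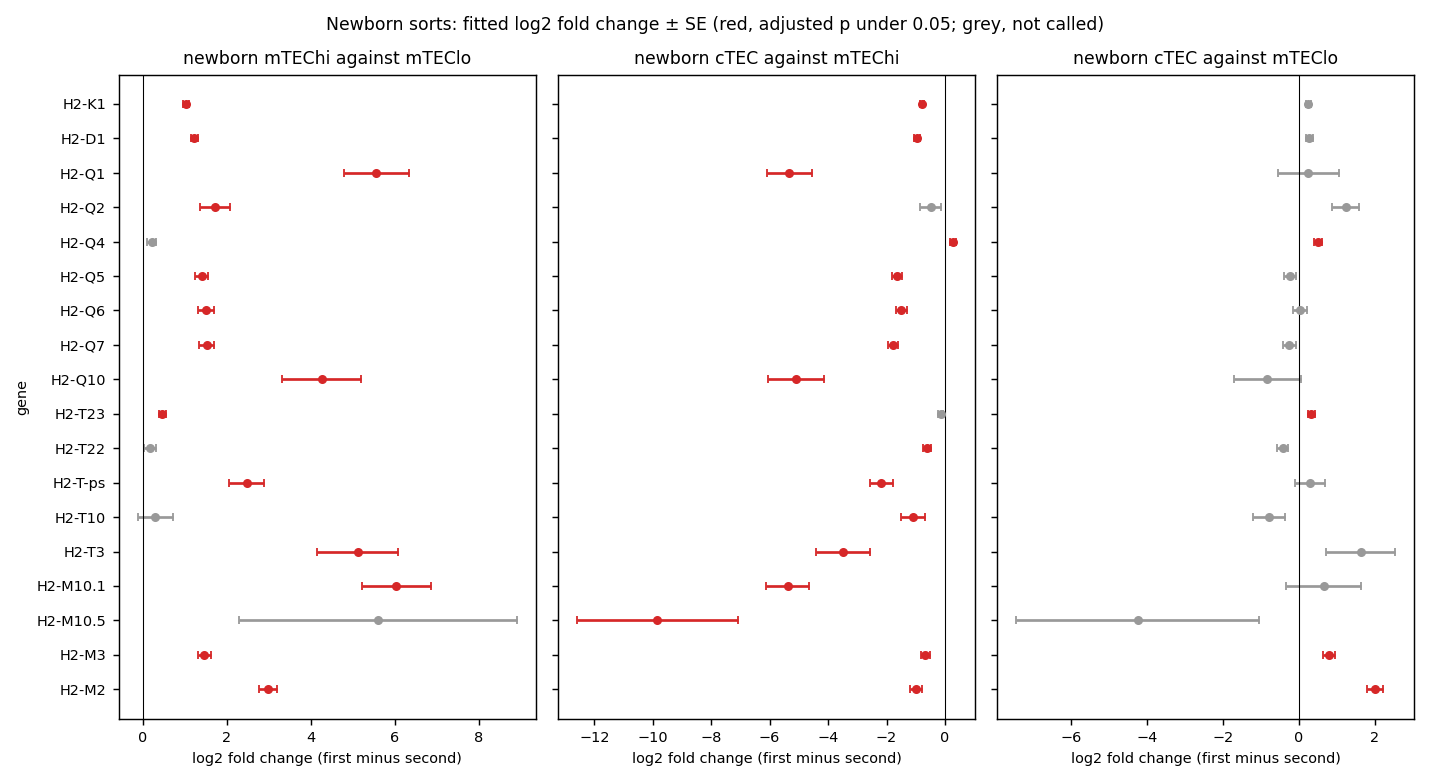
Fitted log2 differences (points) with their standard errors (bars) of 18 members in the 3 comparisons of newborn sorts, red where called at an adjusted p under 0.05 and grey where not. The difference of mTEChi from mTEClo reaches about 6 for H2-M10.1, and H2-Q4 alone is red above 0 in cTEC against mTEChi.

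The genes that serve class I were read alongside. Of 10 assembly genes (the light chain, the peptide transporter and the loading chaperones), 7 were higher and 1 was lower in newborn mTEChi than in mTEClo (background 26.3% and 21.8%), with a median of 0.57. B2m was higher by 1.46 ± 0.09, from 291.7 to 564.4 CPM on the mTEClo plates to 976.4 to 1198.1 CPM on the mTEChi plates. Tapbp, the tapasin that bridges the transporter and the heavy chain, was higher by 0.89 ± 0.11 and the transporter subunit Tap2 by 0.70 ± 0.13, while Tap1 differed by -0.03 ± 0.12 and Erap1, which trims peptides, was lower by 0.74. Tapbpl, Calr, Hspa5 and Pdia3 made up the 7. In newborn cTEC against mTEClo 6 of 10 were higher, against 5.41% of all genes (Tap2 by 1.03 ± 0.13, Tapbpl, Tapbp, Tap1, Erap1 and B2m by 0.39 ± 0.09). Among the regulators, Nlrc5, the transactivator of class I genes, was higher in newborn mTEChi than in mTEClo by 1.52 ± 0.28, with 187.1 to 241.9 CPM against 45 to 145.1 CPM, and lower in cTEC than in mTEChi by 1.42. Rfx5 and Irf2 were also higher and Rfxap, Irf1 and Nfkb1 lower in mTEChi than in mTEClo. In adult mTEChi against mTEClo 4 of 10 assembly genes were higher (Hspa5, Tapbpl, Tapbp and Calr), against 7.79% of all genes. B2m was at 0.16 ± 0.21 there (edgeR adjusted p = 0.599). No assembly or regulator gene was called between Aire-KO and WT in either sort, but with 1 Aire-KO pool a sort no gene at all was called.

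Class I-like genes outside the complex were called higher in adult mTEChi than in mTEClo for 3 of 14: Hfe, a regulator of iron uptake, Procr, the protein C receptor, and Raet1d, a ligand of the receptor NKG2D. Of the Vmn2r genes, 89 were tested in that comparison, 4 were higher (Vmn2r3, Vmn2r82, Vmn2r97 and Vmn2r102) and 2 were lower (Vmn2r19 and Vmn2r20). Over all genes the shares called were 7.79% and 5.18%. Most Vmn2r genes did not pass the filter of the newborn fit. In newborn mTEChi against mTEClo 5 of the 12 tested were higher (background 26.3%), among them Vmn2r3 by 5.52 ± 0.77. None was called between Aire-KO and WT mTEChi, where no gene at all was called. Their median there was -2.06, against -0.16 over all genes. Genes read in few groups pass the filter through the groups where they are high. The Vmn2r counts and this median can therefore not be read against those of all genes.

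The last comparison set newborn against adult WT mice, with 1 newborn pool a sort. Values of the broad members were lower in the newborn than in the adult for both sorts, and no member passed the test. In mTEClo H2-K1 was at 725.3 CPM against 1198.6 to 1366.8 CPM in the adult pools (-0.88 ± 0.26), H2-D1 at 454.9 against 877.2 to 899.4 CPM (-1.05 ± 0.23), H2-Q6 at 101.7 against 300.2 to 521.6 CPM (-2.02 ± 0.43) and H2-M2 at 10.13 against 63.1 to 127.3 CPM (-3.27 ± 0.57, edgeR adjusted p = 0.111). All 12 broad members lay below all 3 adult mTEClo pools, with a median of -1.29 and a range of -3.27 to -0.62, against -0.005 over all genes, and 19.1% of all genes tested lay below the 3 pools. The edgeR test called 0 members and 0% of genes in each direction, although 13 members and 9.93% of genes had an unadjusted p under 0.05 and DESeq2 called 11 members lower (background 3.76%). Without adult mTEClo pool 1 edgeR called 3, H2-M2, H2-Q6 and H2-Q7. Genes outside the members were called in that fit too, so these calls were not particular to the members. In mTEChi H2-K1 was at 1378.5 CPM in the newborn against 1391.04 to 1723.4 CPM in the adult pools and H2-D1 at 987.2 against 985.5 to 1186.4 CPM. The newborn lay below all 4 adult pools for 10 of 12 broad members (12.3% of all genes tested), and the median of the 12 was -0.67 against -0.05 over all genes. The edgeR test called 0 members (background 0% in each direction), with 2 at an unadjusted p under 0.05 (H2-M2 and H2-Q5) and 0 with DESeq2. Newborn and adult cTEC had 1 pool each and allowed no test: H2-K1 was at 744.9 and 1187.1 CPM, H2-Q7 at 72.3 and 200 CPM and H2-Q4 at 139.1 and 222.2 CPM.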

How the data were processed

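Single-cell RamDA-seq libraries of sorted thymic epithelial cells were analysed. The authors deposited whole-number counts of reads per Ensembl gene for 1980 cells. Per the submitters' processing notes and the methods, reads were cleaned with fastp 0.20.0, mapped to GRCm38 (mm10) with STAR 2.7.3a, filtered and deduplicated with SAMtools 1.9 and Picard 2.21.1, and counted without strand by HTSeq 0.11.2. Poorly mapped reads were removed, so near-identical paralogs can lose reads. In the labels 168 cells have a second run, and each cell has 1 column. The authors' second table of scaled values was not used. Symbols and positions came from GENCODE M21 (48263 of 48437 IDs matched), sequences from RefSeq.

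Counts were summed over 13 mouse pools, or over 15 sums of newborn plate and sort. The authors' rank test over cells was not used, because cells are not replicates. The quasi-likelihood test of edgeR 4.0.16 in R 4.3.3, with TMM scaling and its filter on low counts, was fitted to all genes of the 11 mTEC pools (5 residual degrees of freedom), of all 13 pools where cTEC entered, or of the newborn sums with plate as block (8 residual degrees of freedom). A pool alone in its group was assumed to vary like the others. P-values were 2-sided, adjusted by Benjamini-Hochberg over all genes tested, and called under 0.05. Standard errors are the size of the log2 fold change over the square root of F. The fitting code was tested on simulated data. Shares of cells have exact Clopper-Pearson intervals from SciPy 1.17.1, and figures were drawn with matplotlib 3.10.9. Where 0 cells had a read, the upper limit given is instead 3 over the number of cells.

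Named members were all broad members, the H2-M10 genes, members called in any comparison and the textbook nonclassical genes H2-T3, H2-M3, H2-Q7, H2-Q10, H2-T23 and H2-M2. H2-M1, H2-T10 and H2-T-ps were also named. List genes named were B2m, Tap1, Tap2, Tapbp, Nlrc5 and those called, except 1 regulator that is not reported here. Members, lists and tests were chosen with earlier results of these data known. Alternatives were RLE size factors, no filter, DESeq2 1.42.0, plates as units, an age and sex block, omission of cells with 50 CPM of tuft markers, a fold of at least 2, and omission of each pool or plate. Length from windows unique in the genome was not computed, and windows unique among transcripts were used in its place. The plates pair the newborn sorts because the labels place all 3 sorts on each plate.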

Additional observations from a re-analysis of the deposited data

Results flagged for a closer look

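Within groups of 4 pools or 5 plates, 19 groups of values (16.7% of those checked) held a sample whose gap to its nearest neighbour passed Dixon's 95% limit. That limit assumes normal values, and a group with a single value above 0 passes it by construction. The share therefore cannot be set against a chance rate, and the groups share cells and are not independent. Most were H2-M genes with few reads. In adult WT mTEChi, pool 4 stood apart for H2-M1 (17 CPM, next 2.67) and H2-M11 (1.03 CPM, next 0.115), pool 3 for H2-M6-ps (3.13 CPM, next 0.506), and pool 2, with 12 cells, for H2-M10.5-ps1 (0 CPM, next 0.206).

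Plate 19 of newborn mTEClo stood apart for H2-M1 (5.73 CPM), H2-M10.5 (6.96 CPM), H2-M9 (2.47 CPM), H2-M10.3 (1.14 CPM) and H2-M10.5-ps1 (0.0494 CPM, 1 read). The first 4 come from the cell with Aire at 1692.05 CPM described above. In newborn mTEChi, plate 16 stood apart for H2-M6-ps (1.41 CPM), H2-M11 (0.541 CPM), H2-M10.4 (0.18 CPM) and, as the lowest, H2-M10.5-ps1 (0 CPM), and plate 19 for H2-M10.2 (2.17 CPM) and H2-T23 (262.6 CPM, next 199.9). In newborn cTEC, plate 17 stood apart for H2-M10.1 (0.235 CPM) and H2-M10.5 (0.117 CPM), plate 16 for H2-M10.6 (0.246 CPM) and plate 20 for H2-T3 (1.37 CPM, next 0.352).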

How the results depend on the processing

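Of the values of called members, 84.2% kept direction and call over the alternatives, 15.8% lost the call and none reversed. Values not called were counted for broad members and a few other members named above. Of these, 86.2% kept their direction and side of the threshold, 4.66% became called and 9.14% changed direction. Most values not called of intermediate and rare members are outside these rates. In adult mTEChi against mTEClo, 5 members were called, against 15 with DESeq2 (14 higher, and H2-T24 lower), 17 with plates as units, 3 without cells with tuft markers, 3 with age and sex as a replicate block, and 1 to 8 when 1 pool was left out. Over all genes the calls moved as well, from 5183 in the main fit to 11573 with DESeq2 and 16887 with plates as units. They fell to 3220 without cells with tuft markers and to 3026 with age and sex as a replicate block. The block left 1 residual degree of freedom. Under that pairing by age and sex the value of H2-Q10 in Aire-KO against WT mTEChi was 0.0199, from -1.28, and no other count of calls changed. In Aire-KO against WT mTEChi 0 members were called, 2 with DESeq2 and 8 with plates. With plates, 13.8% of all genes were lower and 9.48% higher in newborn against adult mTEClo, and 2.03% were lower in mTEChi. In newborn against adult mTEChi the count of members was 6 with plates. In newborn against adult mTEClo it was 11 with DESeq2, 15 with plates and 0 to 3 when 1 pool was left out. The fit that called 3 also called genes outside the members. In adult cTEC against mTEChi it was 7 with DESeq2 and 0 to 1 when 1 pool was left out, the 1 being H2-M10.1 without mTEChi pool 2. In newborn cTEC against mTEClo it was 4, and 1 at a fold of at least 2 and 1 to 4 when 1 plate was left out. In newborn cTEC against mTEChi it was 16, and 10 at a fold of at least 2 and 13 to 15 when 1 plate was left out. Among broad members near 0, H2-D1 in adult mTEChi against mTEClo ran from -0.0107 (without mTEChi pool 4) to 0.147 when 1 pool was left out, and H2-T24 in newborn mTEChi against mTEClo from -0.0205 (without plate 18) to 0.289 when 1 plate was left out. Without the plate as replicate block the newborn counts were 14, 3 and 13. The 5 rare members became 8 after thinning to 200000 reads a cell and 10 when at least 5 reads were asked for. RLE scaling moved the median of all genes in adult mTEChi against mTEClo from 0.298 to 0.398, and the absence of a filter to 0.526. The causes of these differences were not tested. Groups of 1 pool limit the Aire-KO and the newborn against adult comparisons.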
